A study of Mus musculus with 6 samples.

Results

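The comparison described here sets fallopian tube organoids that carried a mutant Pik3ca together with Trp53 loss against organoids with Trp53 loss alone. It rests on 2 of the 6 arrays of the series, 1 for each group, and the array of the control organoids is given beside them as a check on the reference. All 3 cultures were mouse fallopian tube organoids of female origin, transduced, and sampled before subcutaneous inoculation. The control organoids were Trp53flox/flox and carried the control vector pLKO.1, the next culture had Trp53 loss, and the last had Pik3caH1047R (the substitution H1047R in Pik3ca) with Trp53 loss. They are called control, Trp53 loss and Pik3ca/Trp53. The vector or recombinase behind each genotype, the number of mice and whether a culture came from a single clone are unstated in the sources used here. All were grown in serum-free medium with EGF (50 ng/ml), R-spondin1 (250 ng/ml), Noggin (100 ng/ml), the ROCK inhibitor Y27632 (10 µM), Jagged-1 (1 µM) and the GSK3 inhibitor CHIR-99021 (2.5 µM), so ligands or activators of the EGF receptor, Wnt and Notch pathways and an antagonist of BMP were present in every culture.

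Such organoids are hollow balls of epithelium cultured in a gel. The oviduct epithelium holds secretory cells and multiciliated cells. Pik3ca encodes the catalytic subunit of PI3-kinase, which makes a membrane lipid that recruits the kinase AKT. AKT passes the signal to mTOR and to lipid synthesis and keeps the FOXO transcription factors out of the nucleus. The H1047R substitution lies in the kinase domain and raises the activity of the enzyme. Trp53 encodes p53, a transcription factor that halts the cell cycle or triggers cell death after damage.

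Each array measured total RNA with Cy3-labelled cRNA made from 0.2 µg RNA. Levels are log2 intensities relative to the 75th percentile of the same array, so a level of 0 marks a probe at that percentile. Probes well above background made up 45.4% to 51.0% of the 56605 probes over the 6 arrays. The Pik3ca/Trp53 array held the lowest share and had 236 spots marked as population outliers, against 58 to 89 on the others. Its copies of the same probe differed by a median SD of 0.0816 log2 units, against 0.0394 to 0.0698 on the others. Both arrays compared lay in the first row of 1 slide and control in the second row, and all were read in 1 scan. With 1 array per group there is no replicate check and no p-value, and a gene is called higher or lower at a difference of at least 1 log2 unit (2-fold) between the 2 arrays. Precision is limited by the number of arrays. Levels are of a whole culture, so fewer cells of a type and less RNA per cell cannot be told apart.

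The targeted genes were read by 1 probe each. Trp53 read 0.88 in control, and neither Trp53 loss nor Pik3ca/Trp53 gave a signal well above background, so that control was at least 44.6-fold and at least 34.8-fold higher. Pik3ca read 1.55 in control, 0.96 in Trp53 loss and 1.94 in Pik3ca/Trp53, a difference of 0.98 (1.97-fold) between the arrays compared. The probe does not separate mutant from normal Pik3ca RNA as far as the sources used here say, so this value is no check of the allele.

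All 17 epithelial markers fixed for the label were measured on both arrays. Their median difference was 0.26, 1 was higher and 0 were lower. The keratin Krt8 read 5.58 in Trp53 loss and 6.74 in Pik3ca/Trp53, and the adhesion genes Epcam and Cdh1 read 3.55 and 3.80, and 3.50 and 4.04. Of the markers of other cell types, 14 of 23 for leukocytes, 12 of 16 for fibroblasts and smooth muscle and 7 of 12 for endothelium were well above background on neither array. The missing ones include Ptprc, the common leukocyte antigen, the fibroblast collagens Col1a1, Col1a2 and Col3a1, and the endothelial Pecam1. Of the 4 fibroblast and smooth muscle markers measured, 1 (Pdgfra) was higher and 0 were lower, with a median of 0.84. Of the 5 endothelial markers measured, 2 were higher and 1 lower, with a median of 0.51. Among all genes 9.15% were higher and 8.54% lower.

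Of 23787 named genes, 14236 were measured, meaning that either array read a probe of the gene well above background. In Pik3ca/Trp53, 1303 of them (9.15%) were higher and 1216 (8.54%) were lower than in Trp53 loss, with a median difference of 0.01. The count of each gene list below is to be read beside these shares. Where a signal was not well above background it was set no lower than the lowest signal well above background on its array, and the fold is then given as "at least". With such limits 1155 genes were higher and 859 were lower. Genes read by more than 1 probe had a median SD of 0.17 log2 units between probes, which covers technical error only. Of the genes named below, the probes disagreed most for Spred2, whose SD is given with the ERK genes. Nrg1 (SD 1.60), H2-Q10 (1.02), Apoe (0.98), Egfr (0.85) and Rarb (0.82) followed. Against control, 10.6% of 14331 measured genes were higher in Pik3ca/Trp53 and 11.3% were lower. Trp53 loss against control gave 5.86% higher and 7.58% lower of 14361. These 3 comparisons share arrays, so their values are set side by side and none is a repeat of another.

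**Figure D1:**
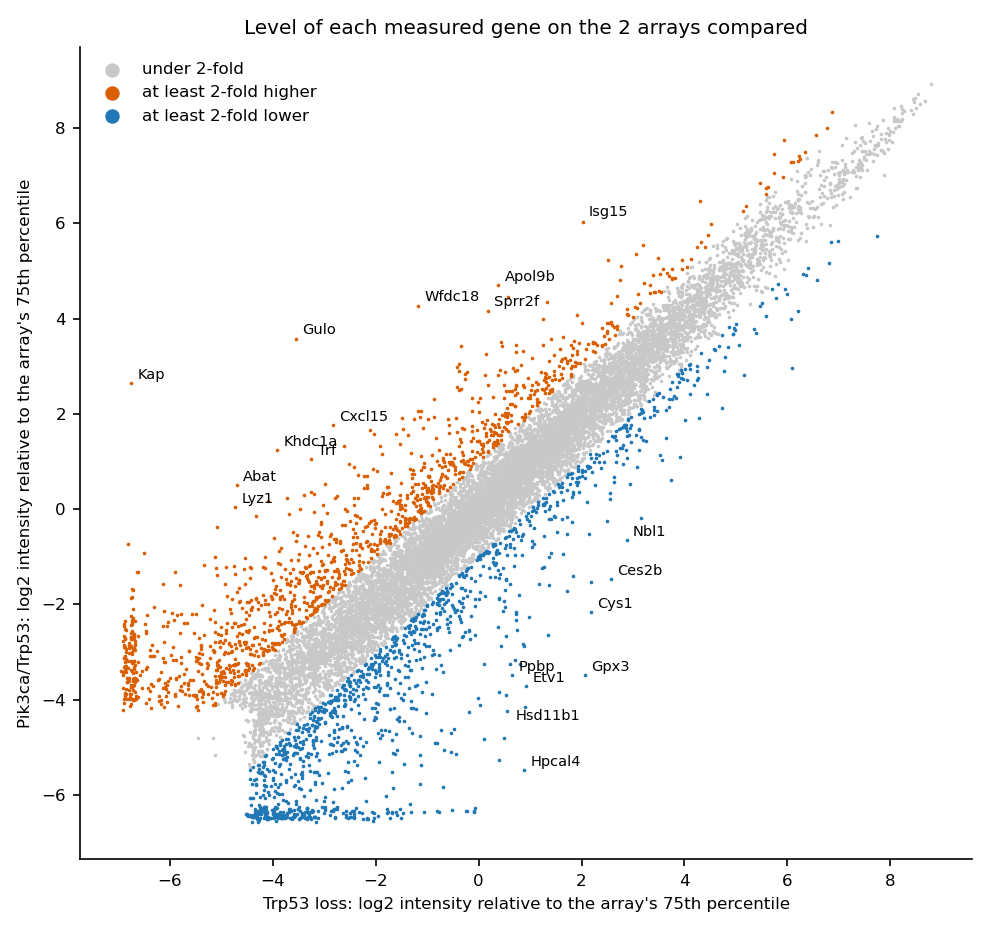
Level of each measured gene in Trp53 loss (horizontal axis) and Pik3ca/Trp53 (vertical axis), both as log2 intensity relative to the array's 75th percentile, 1 array each. Orange points are the 1303 genes at least 2-fold higher and blue points the 1216 at least 2-fold lower. The bands at the lower left and left edge are signals not well above background.

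Interferons are secreted proteins that bind receptors on the cell surface, activate JAK kinases and the STAT and IRF transcription factors, and so switch on genes that block viruses and display antigen. The antiviral effector genes were the group with the largest median difference in the comparison, shared with the interferon-induced GTPases: among the 54 lists, both had a median of 2.27 (2.11 and 1.94 with limits for dim signals). Of 58 antiviral genes measured, 47 were higher in Pik3ca/Trp53 and 0 were lower, against 9.15% and 8.54% of all genes. Against control, 39 of 58 were higher and 0 lower, with a median of 1.78. Trp53 loss against control gave 3 higher and 4 lower of 52, with a median of -0.35.

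The tagging protein Isg15, a ubiquitin-like modifier, read 2.25 in control, 2.02 in Trp53 loss and 6.02 in Pik3ca/Trp53, 16.0-fold above Trp53 loss. On the arrays of the series not compared here it read 5.64 for tumour-derived Pik3ca/Trp53 organoids, 3.32 for organoids with a mutant Apc and Trp53 loss and 6.46 for organoids of that genotype after growth in the animal, where the labels name a cyst. In control, Trp53 loss and Pik3ca/Trp53, the order also used below in this paragraph, the apolipoprotein Apol9b read 1.12, 0.39 and 4.70. Its near-identical copy Apol9a read 1.27, 0.56 and 4.45. Pik3ca/Trp53 was the high array for both, 19.9-fold and 14.8-fold over Trp53 loss. Ifit1, which binds viral RNA ends, read -2.31, -2.52 and 0.95 (11.1-fold). Oas2, an enzyme that makes the activator of RNase L, read 0.61, -0.41 and 2.99 (10.6-fold), and its relative Oas1a read 3.36, 3.20 and 5.55 (5.10-fold). Rsad2, which encodes the antiviral enzyme viperin, was at least 6.75-fold higher (2 probes, SD 0.07). The effectors Phf11d (-0.44, -1.17 and 2.06) and Ifi44 (-1.31, -2.05 and 0.85) followed the same order. The helicase gene Ddx60 was at least 10.7-fold higher and Trim30a, of the TRIM family of antiviral ligases, at least 9.64-fold, both from signals not well above background in control and in Trp53 loss. The single member below 0 was the lysosomal reductase Ifi30 (-0.32), and some others were nearly level: Bst2, which tethers viruses to the membrane, read 5.17, 5.18 and 5.67, and the membrane proteins Ifitm3 and Ifitm1 read 7.57 and 7.47 in Pik3ca/Trp53 against 7.35 and 7.25 in Trp53 loss. Members of these families are close copies (Apol9a and Apol9b, Ifit3 and Ifit3b, the Oas1, Tgtp, H2-Q and Gbp genes), so a probe may read more than 1 of them and their single values are uncertain.

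The interferon-induced GTPases disrupt the compartments that hold bacteria and parasites. Of 16 measured, 14 were higher, or 13 with limits, and 0 were lower. Against control 13 were higher. Tgtp2 read -1.75 in control, -2.62 in Trp53 loss and 1.32 in Pik3ca/Trp53, 15.4-fold above Trp53 loss. Gbp3 read -1.48, -1.13 and 2.06 (9.09-fold), Gbp2 read -1.73, -1.97 and 0.79 (6.80-fold), and Igtp read 0.55, -0.01 and 2.24 (4.76-fold). In each of these, Pik3ca/Trp53 was the high array and control lay within 0.9 log2 units of Trp53 loss. Gbp10 (1.46-fold higher) and Gvin1 (1.36-fold lower) were the members under 2-fold.

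Promoter sequences are shown here because many of the high members share a short motif, the interferon-stimulated response element, to which STAT and IRF factors are known to bind. It was searched as GAAANNGAAA on both strands, overlaps between matches allowed, in the 250 bases before each start in RefSeq's promoter table for GRCm38.p6. It was present for 3.46% of all 27025 genes there and 3.05% of the 11344 measured genes with a window. Among the GTPases 8 of 9 genes with a window had it (88.9%) and all 8 were higher. Among the antiviral genes 19 of 47 had it (40.4%), 16 of them higher, and for class I presentation 2 of 20. Over the whole lists, with or without the motif, 14 of 16 GTPases and 47 of 58 antiviral genes were higher. Of all higher genes with a window 6.82% had the motif, and of all lower genes 2.92%. Below are the last 120 bases before the start, 5′ to 3′ on the gene's strand, with each match on either strand in capitals.
Isg15 (chr4:156200819-156200938, minus strand): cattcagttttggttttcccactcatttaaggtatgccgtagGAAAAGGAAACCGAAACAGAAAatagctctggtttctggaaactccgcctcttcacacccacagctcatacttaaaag
Ifit1 (chr19:34640769-34640888, plus strand): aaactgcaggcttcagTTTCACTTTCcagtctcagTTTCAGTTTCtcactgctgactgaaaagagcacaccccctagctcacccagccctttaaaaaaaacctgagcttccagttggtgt
Tgtp2 (chr11:49064213-49064332, minus strand): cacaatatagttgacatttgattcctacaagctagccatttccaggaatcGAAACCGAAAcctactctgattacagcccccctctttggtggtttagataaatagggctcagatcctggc
Gbp2 (chr3:142620543-142620662, plus strand): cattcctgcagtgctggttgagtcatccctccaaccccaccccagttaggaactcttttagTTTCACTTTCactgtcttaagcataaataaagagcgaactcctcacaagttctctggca
The Isg15 window held 3 overlapping matches between positions -78 and -66, counted from the start to the first base of each, and Ifit1 held 2. A match is a run of letters and no evidence of binding in these cells.

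Presentation on MHC class I shows peptides cut by the proteasome to T cells. Of 25 measured members, 9 were higher and 0 lower, with a median of 0.91. The members over 2-fold were the inducible proteasome subunits Psmb9 (-0.86 in Trp53 loss, 1.93 in Pik3ca/Trp53, 0.03 in control) and Psmb8 (0.72, 3.44, 0.83), the peptide transporter subunits Tap1 (-1.87, 0.28, -0.47) and Tap2 (0.71, 2.16, 1.51), the loading factor Tapbp (1.12, 2.67, 1.44), and H2-Q10, H2-Q7, H2-M3 and H2-Q2. Pik3ca/Trp53 was the highest of the 3 arrays in all 5 whose levels are given. For Tap1 the difference was 2.15 over Trp53 loss but 0.75 over control, since control lay above Trp53 loss. The classical heavy chains were under 2-fold: H2-K1 read 4.85 in control, 5.18 in Trp53 loss and 6.11 in Pik3ca/Trp53, and H2-D1 read 4.71, 4.73 and 5.54. The light chain B2m read 4.98, 5.30 and 5.91. The chaperones Calr, Pdia3 and Canx differed by 0.23, -0.04 and -0.21. Of class II genes 9 of 15 were measured and 3 were higher: the invariant chain Cd74 (4.03-fold), the class II regulator Ciita (2.32-fold) and H2-DMa (2.08-fold), while the beta chain H2-Ab1 differed by 0.25 and H2-Ob was not well above background in Pik3ca/Trp53 (at least 1.5-fold lower).

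Upstream of these genes the receptors differed little. Of 9 interferon receptors and kinases, 0 were 2-fold higher or lower, from Ifngr2 at 0.55 to Jak1 at -0.74, and both chains of the type I receptor, Ifnar1 and Ifnar2, read slightly lower (-0.48 and -0.54). Of 17 STAT and IRF factors and regulators, 5 were higher. Among them, Irf7 read 0.45 in control, -0.22 in Trp53 loss and 2.88 in Pik3ca/Trp53 (8.61-fold over 2 probes, SD 0.11) and Usp18, which removes Isg15 and damps the receptor, read 0.11, -1.14 and 1.93 (8.41-fold). Batf2 was at least 3.36-fold higher. Irf7, Usp18 and Batf2 are themselves known targets of interferon. Stat2, Irf9 and Irf1 were 1.93-fold, 1.52-fold and 1.25-fold higher, Irf3 differed by -0.04, and Irf8 was 2.49-fold lower. Of 17 nucleic acid sensors, 5 were higher, namely Oas1a, given above, Zbp1 (7.41-fold), the RNA helicase Dhx58 (5.62-fold), Ddx58 (at least 4.16-fold) and Ifih1 (3.42-fold). Cgas, which detects DNA in the cytosol, and its partner Sting1 differed by -0.07 and 0.03, and the adaptor Mavs by -0.58.

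The genes of the ligands themselves were mostly dim: 5 of 15 interferon genes on the array were measured. Ifne, the epsilon interferon of the female reproductive tract, read 0.23 in control, -0.36 in Trp53 loss and 1.47 in Pik3ca/Trp53 (3.55-fold). Ifna1 was just above background in Pik3ca/Trp53 alone (at least 1.39-fold higher), and Ifnk was not well above background there, at least 4.94-fold below Trp53 loss. Of 16 chemokines measured, 3 were higher and 2 lower, or 3 and 1 with limits. Cxcl15, a chemokine of mucosal epithelium, was 24.2-fold higher (-2.83 in Trp53 loss, 1.76 in Pik3ca/Trp53, -1.26 in control) and Cxcl10, an interferon target, 4.47-fold higher, while Cxcl2 was 3.01-fold lower. The NF-kappaB feedback genes gave 0 higher and 2 lower of 18, or 0 and 1 with limits, with Il1a 2.53-fold lower and the inhibitor Nfkbia 1.27-fold higher.

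Leukocytes express many of these genes, so their markers are given beside them. Of the 9 measured, 0 were higher and 1, Cd68, was 2.44-fold lower. Their summed linear level was 30.5 in Pik3ca/Trp53, 44.9 in Trp53 loss and 89.0 in control. The other 14 of 23, Ptprc, Tyrobp, Adgre1 and Cd8a among them, were well above background on neither array. The summed level of the 4 fibroblast and smooth muscle markers measured was 11.4 against 6.85, and that of 5 endothelial markers 13.8 against 9.0. The part of those cells in any result was not tested. The lower share of probes above background and the higher number of outlier spots lie on the same array as the high interferon levels, and their part was not tested either.

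**Figure D2:**
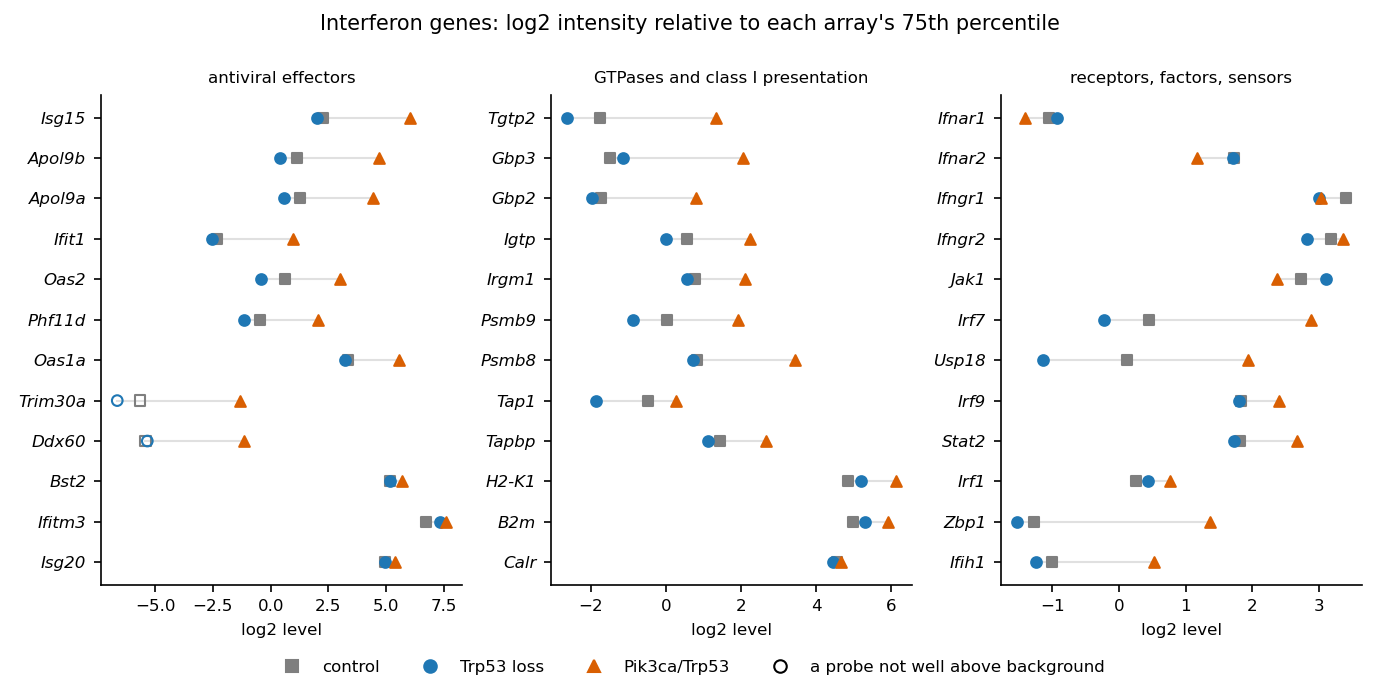
Levels of interferon-related genes on the arrays of control (grey squares), Trp53 loss (blue circles) and Pik3ca/Trp53 (orange triangles), as log2 intensity relative to each array's 75th percentile, 1 array per group. Open symbols have a probe not well above background. Effectors and GTPases such as Isg15 (2.02 and 6.02) separate widely, while the receptor chain Ifnar1 (-0.93 and -1.41) lies close together.

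Secreted defence proteins other than antiviral genes also differed. Of 24 antimicrobial and acute phase genes measured, 11 were higher, or 10 with limits, and 0 were lower (median 0.96). Wfdc18 read -1.48 in control, -1.18 in Trp53 loss and 4.27 in Pik3ca/Trp53 (43.7-fold). Trf, which encodes the iron carrier transferrin, was 19.7-fold higher over 2 probes (SD 0.18), and Lyz1, a lysozyme, at least 25.0-fold, with a close copy in Lyz2. The abundant members of the oviduct and of other mucosae did not follow: Wfdc2 differed by -0.05, C3 by 0.00, Lcn2 by -0.59 and Ltf by -0.87.

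Cell division genes formed the other large group that was higher. Of 60 mitosis and spindle genes, all measured, 54 were higher and 0 lower, with a median of 1.52. Among all genes 9.15% were higher and 8.54% lower. Against control, 55 of 60 were higher with a median of 2.16, and in Trp53 loss against control 4 were higher with a median of 0.61. Birc5, a subunit of the chromosomal passenger complex, read 0.26 in control, 0.86 in Trp53 loss and 3.31 in Pik3ca/Trp53 (5.49-fold, SD 0.20 over 2 probes). Mki67, the proliferation marker, read 0.95, 1.63 and 3.61 (3.93-fold), and the cyclin Ccnb2 read 2.11, 2.74 and 4.81 (4.20-fold). The 3 arrays lay in the same order in each, with the wider step between Trp53 loss and Pik3ca/Trp53. The mitotic motor Kif11 was an exception in that control (-1.77) lay above Trp53 loss (-2.69), with Pik3ca/Trp53 at -0.72. Cdc20, which activates the anaphase-promoting complex, was 3.41-fold higher (SD 0.07 over 2 probes) and the topoisomerase Top2a 2.99-fold (SD 0.25). The members under 2-fold were Cdk1 (1.99-fold), Smc4, Bub3, Anln, Pttg1 and Kif4, and Kif4 was 1.48-fold lower.

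DNA replication genes were higher by less. Of 45 measured, 18 were higher, or 16 with limits, 0 lower, and the median was 0.82. Thymidine kinase Tk1 read 0.12, 0.64 and 2.48 in control, Trp53 loss and Pik3ca/Trp53 (3.57-fold), and the helicase subunit Mcm5 read 0.28, 0.31 and 1.77 (2.75-fold). The clamp Pcna (1.26-fold) and the licensing factor Cdt1 (1.04-fold) differed little, and the polymerase subunit Pole was 1.68-fold lower. The clustered histone genes, which are transcribed in S phase, gave 30 higher and 0 lower of 43 measured, with a median of 1.16, and 35 of 43 higher against control. Their sequences are close copies and most of their messages lack a poly(A) tail, so single values are uncertain. Among 27 cyclins, CDKs and E2F factors, 8 were higher and 2 lower. The mitotic regulator Foxm1 was at least 3.61-fold higher, Ccna2 4.38-fold and Ccne1 2.96-fold. The 2 lower members were the G1 cyclin Ccnd1 (5.14, 4.85 and 3.41) and Myc (-0.56, -0.46 and -2.15), 2.71-fold and 3.23-fold below Trp53 loss, although both are known promoters of division.

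The cell cycle homology region, searched as TTTGAA on both strands in the same windows, is shown for 3 mitosis genes because it is a known element of late cell cycle promoters. It was present for 18.3% of all genes, 13.3% of measured genes and 5 of 36 replication genes (13.9%). Of 53 mitosis genes with a window 22 held it (41.5%), and 20 of the 22 were higher, against 54 of the 60 in the list. It was not particular to cell division genes: 5 of the 9 GTPases (55.6%), 10 of 47 antiviral genes (21.3%) and 20.0% of all higher genes held it too. The CCAAT box, searched as CCAAT on both strands, was present for 37.5% of all genes, 40.2% of measured genes and 39 of the 53 mitosis genes (73.6%), and also for 15 of 20 class I genes, 20 of 36 replication genes (55.6%) and 13 of 24 ATF4 genes (54.2%). Capitals mark TTTGAA or its complement.
Cdc20 (chr4:118437344-118437463, minus strand): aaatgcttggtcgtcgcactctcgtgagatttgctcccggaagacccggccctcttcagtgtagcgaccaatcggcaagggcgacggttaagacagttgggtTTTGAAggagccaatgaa
Top2a (chr11:99024190-99024309, minus strand): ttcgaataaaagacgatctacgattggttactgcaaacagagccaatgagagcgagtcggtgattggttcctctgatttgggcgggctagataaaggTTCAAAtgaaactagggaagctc
Kif11 (chr19:37376262-37376381, plus strand): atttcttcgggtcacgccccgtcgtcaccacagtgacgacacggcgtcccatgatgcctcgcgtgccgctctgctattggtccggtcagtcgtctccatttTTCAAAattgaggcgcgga
In all 3 the match began within 23 bases of the start, at -18, -23 and -19.

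Known p53 targets were already low in Trp53 loss, and the median difference from there was near 0. Of 36 measured, 5 were higher and 3 lower, with a median of -0.02. Trp53 loss against control gave 22 lower and 0 higher of 38. Against control 20 of 38 were lower and 1 higher (median -1.04). The inhibitor Cdkn1a (p21) read 4.18 in control, 0.10 in Trp53 loss and 0.78 in Pik3ca/Trp53. Among the higher ones, Gtse1 (4.67-fold), Ckap2 (2.86-fold) and Psrc1 (2.68-fold) are spindle or G2 proteins as well as p53 targets, Serpine2 (5.60-fold) is a protease inhibitor and Ak1 (2.26-fold) an adenylate kinase. The lower ones were Gdf15, Plk3 and the AKT inhibitor Phlda3, which read 5.23, 1.32 and 0.23. Among 8 CDK inhibitors, Cdkn3 (3.28-fold), Cdkn2d (3.01-fold) and Cdkn2c (2.42-fold) were higher, and Cdkn2a read 1.40 in control, 3.81 in Trp53 loss and 3.80 in Pik3ca/Trp53.

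**Figure D3:**
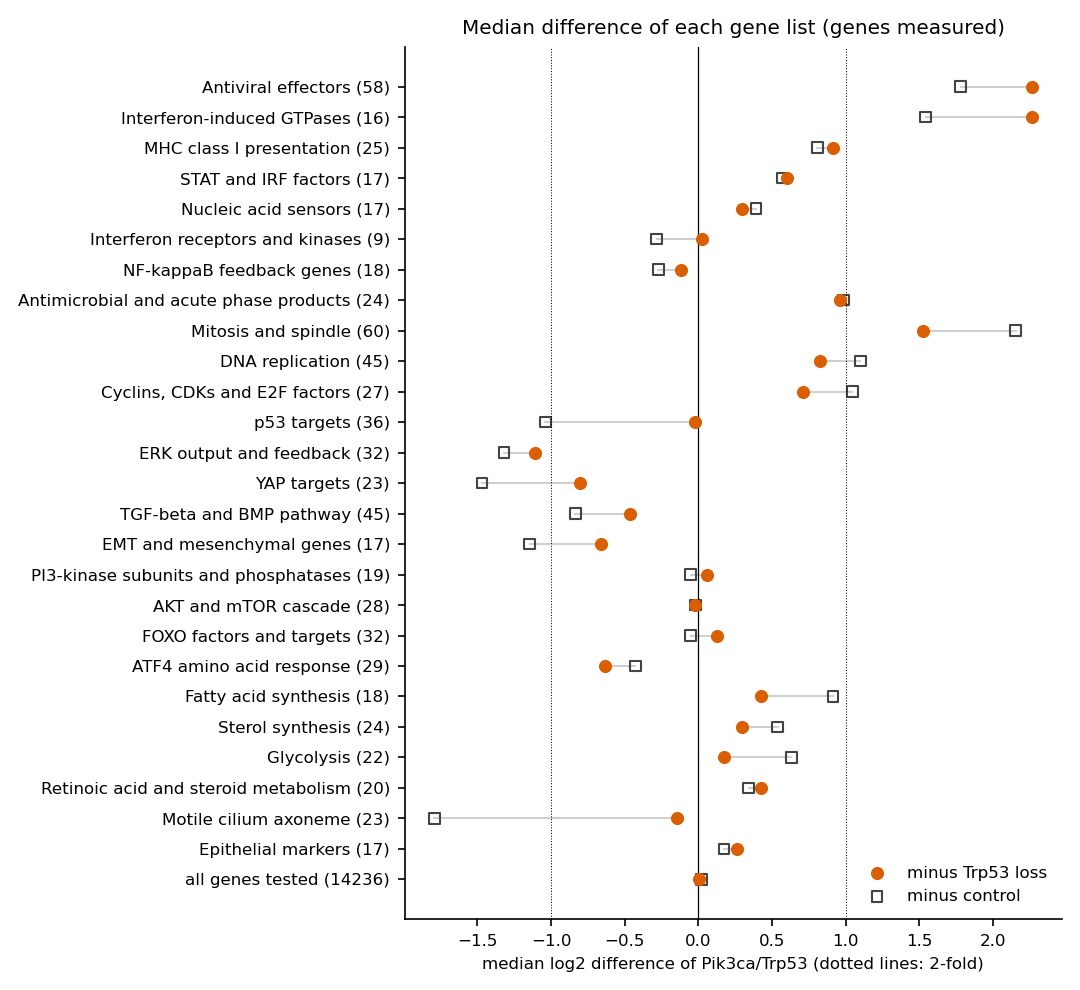
Median log2 difference of 26 gene lists and of all genes for Pik3ca/Trp53 minus Trp53 loss (orange circles) and minus control (open squares), with the number of genes measured in the first comparison in brackets. Dotted lines mark 2-fold. Antiviral genes and GTPases (2.27) and mitosis genes (1.52) lie farthest to the right and ERK output (-1.11) farthest to the left of the orange circles. The 2 comparisons share the Pik3ca/Trp53 array.

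The genes of the PI3-kinase pathway itself differed little as a group. Of 19 subunits and phosphatases, 2 were higher and 1 lower (median 0.06), or 1 and 0 with limits, since Pik3c2b (at least 1.41-fold higher) and the phosphatase gene Inpp5d (at least 1.85-fold lower) were each over background on 1 array. The regulatory subunit gene Pik3r3 read 1.99 in control, 1.58 in Trp53 loss and 3.37 in Pik3ca/Trp53 (3.44-fold), and Pik3r1 was 1.91-fold higher. Of 28 AKT and mTOR genes, 1 was higher (Sgk2, at least 2.32-fold) and 2 lower, Phlda3 (2.13-fold) and the mTOR inhibitor Deptor (2.02-fold), with Akt2 at 0.06 and Mtor at -0.45.

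Insulin and IGF genes gave 3 higher and 5 lower of 14, against 9.15% and 8.54% of all genes. The ligand Igf1 was well above background on the Pik3ca/Trp53 array but not in Trp53 loss (at least 2.79-fold higher), and Grb14, an adaptor that restrains the insulin receptor, was 3.26-fold higher. The adaptor Irs2, which couples the insulin receptor to PI3-kinase, read -1.66 in control, -0.19 in Trp53 loss and -2.53 in Pik3ca/Trp53 (5.08-fold lower), while its relative Irs1 differed by 0.43. The receptor gene Igf1r was 2.24-fold lower (1.12, 1.28, 0.12). The secreted binding proteins went both ways: Igfbp2 was at least 18.7-fold higher, and Igfbp7 (4.13-fold), Igfbp3 (2.70-fold) and Igfbp1 (at least 6.0-fold) were lower. Igfbp1 was not well above background in control, so the Trp53 loss array was the high one.

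FOXO factors and targets gave 0 higher and 7 lower of 32, against 9.15% and 8.54% of all genes, with a median of 0.13. The lower ones are known FOXO targets of fasting metabolism and stress: Pdk4 (at least 4.26-fold), Klf15 (at least 4.85-fold), Irs2, Igfbp1, Ppargc1a (3.50-fold), Gadd45a (3.25-fold) and Txnip (2.09-fold). Ppargc1a read -0.14 in control, 1.08 in Trp53 loss and -0.72 in Pik3ca/Trp53, and for Pdk4, Klf15 and Irs2 as well Trp53 loss was the highest of the 3 arrays. Sesn1 (1.83-fold), Sesn3 (1.80-fold) and Bnip3 (1.65-fold), also FOXO targets, read higher but under 2-fold. Against control 4 members were higher and 5 lower.

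Fatty acid synthesis genes were higher in part, while the sterol and glycolysis counts lay close to the shares of all genes (9.15% higher, 8.54% lower). Of 18 fatty acid genes, 5 were higher and 0 lower (median 0.43), and 9 were higher against control (median 0.91). The lipogenic regulator Thrsp read -1.02, -0.34 and 2.52 in control, Trp53 loss and Pik3ca/Trp53 (7.27-fold, SD 0.08 over 2 probes). The lipase Pnpla3 was at least 3.02-fold higher, and the desaturase Fads2 (2.44-fold), the factor Srebf1 (2.12-fold) and Acss2 (2.04-fold) followed, all targets of or identical to SREBP-1. The main enzymes Fasn, Acaca and Acly were 1.27-fold, 1.37-fold and 1.09-fold higher. Of 24 sterol genes, 3 were higher (Tm7sf2, Mvk and Pmvk) and 1 lower, or 0 lower with limits. Glycolysis gave 1 higher, the enolase Eno2 (-2.57, -2.12 and 1.66, 13.7-fold), and 1 lower, the hexokinase Hk2 (2.10-fold), of 22. Ldha and Gapdh were 1.43-fold and 1.21-fold higher.

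Genes of the ATF4 amino acid response, which cells use when amino acids run short and which mTOR also drives, were lower. Of 29 measured, 11 were lower and 1, the cystine transporter Slc7a11, was higher, with a median of -0.63. Among all genes 8.54% were lower and 9.15% higher. Atf4 read 4.61 in control, 4.73 in Trp53 loss and 3.66 in Pik3ca/Trp53 (2.10-fold lower). Its known targets Asns, asparagine synthetase (1.78, 2.66, 1.00), Chac1, which breaks down glutathione (2.18, 2.89, 1.07), and the pseudokinase Trib3 (3.05, 3.70, 2.13) were 3.17-fold, 3.53-fold and 2.96-fold lower. In each the Trp53 loss array was the highest and Pik3ca/Trp53 the lowest. Against control 6 of 29 were lower and 1 higher (median -0.43). The hormone gene Fgf21 was not well above background and at least 5.74-fold lower. Nucleotide and serine synthesis genes gave 1 higher and 2 lower of 23 with 21 below 0, Mthfd2 (2.60-fold) and Ctps (2.16-fold) being the 2 lower ones and Tyms, which is also a replication gene, the higher one (2.66-fold).

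The amino acid response element was searched as TGATGCAA on both strands in the 250-base windows and is shown for 2 lower genes of the list. It was present for 0.918% of all genes, 0.696% of measured genes and 8 of 24 genes of the ATF4 list with a window (33.3%). Of these 8, 4 were lower and 1, Slc7a11, higher, against 11 lower and 1 higher of the 29 measured. Nupr1, a stress-induced chromatin protein, read 5.74, 6.0 and 4.52 in control, Trp53 loss and Pik3ca/Trp53, and Pycr1, which makes proline, read -0.64, 0.02 and -1.75.
Nupr1 (chr7:126625471-126625590, minus strand): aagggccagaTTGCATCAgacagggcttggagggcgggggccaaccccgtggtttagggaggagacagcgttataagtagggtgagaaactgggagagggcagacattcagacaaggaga
Pycr1 (chr11:120643749-120643868, minus strand): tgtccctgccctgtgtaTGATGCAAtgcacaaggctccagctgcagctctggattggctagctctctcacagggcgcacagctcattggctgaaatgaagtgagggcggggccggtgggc
Capitals mark the element or its complement.

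The ERK kinases carry the signal of the EGF and FGF receptors, and many of their target genes were lower. Of 32 ERK output and feedback genes measured, 17 were lower and 1 higher, with a median of -1.11. Among all genes 8.54% were lower and 9.15% higher. With limits for dim signals 14 were lower, 0 were higher and the median was -0.80. The list had the lowest median of the 54 only for signals as measured, since with limits that of the YAP targets (-0.81) was as low. The transcription factor Etv1 read 0.22 in control, 0.92 in Trp53 loss and -3.72 in Pik3ca/Trp53 (25.0-fold lower) and its relative Etv4 read 0.06, -0.14 and -2.25 (4.30-fold lower). The feedback inhibitor Spry1 read 3.44, 3.56 and 1.03 (5.77-fold lower), and the phosphatases Dusp2 (1.74, 0.78, -1.81) and Dusp4 (0.54, 0.48, -1.24) were 6.0-fold and 3.30-fold lower. Control and Trp53 loss lay within 1 log2 unit of each other in all 5. The AP-1 member Fosl1 was at least 4.85-fold lower, the membrane protein Emp1 4.44-fold and the urokinase receptor Plaur 2.89-fold. The member called higher was Spred2, at least 1.26-fold, whose probes differed by an SD of 2.47. Some known targets differed little: Dusp6, a phosphatase induced by ERK, read 2.71, 3.75 and 3.93, Jun was 1.19-fold higher, Fos 1.15-fold lower, and Spry2 1.43-fold lower. Against control 20 of 34 were lower and 1 higher (median -1.32).

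Of the receptors and ligands upstream, 3 of 12 EGF family genes were lower and 0 higher, against 8.54% and 9.15% of all genes. The ligand Hbegf read 3.26 in control, 2.70 in Trp53 loss and 1.14 in Pik3ca/Trp53 (2.94-fold), Nrg1 was at least 2.50-fold lower, and the feedback inhibitor Errfi1 was 2.07-fold lower. Egfr read -0.25, -1.12 and -2.08 (1.94-fold) and Erbb2 read 2.17, 2.30 and 2.45. Among 27 FGF, MET, VEGF and PDGF genes, 3 were higher and 7 lower. The receptor Kit (3.25-fold) and its ligand Kitl (2.13-fold) were both higher, Fgfbp1 (3.02-fold), Nrp1 (2.68-fold) and Flt1 (2.60-fold) were lower, and Pdgfra appeared above background in Pik3ca/Trp53 alone (at least 2.08-fold).

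YAP is a co-activator that responds to cell shape and crowding. The counts here stand beside 9.15% higher and 8.54% lower of all genes. Of 23 YAP targets, 9 were lower, or 8 with limits, and 0 higher, with a median of -0.81, and 22 of 23 lay below 0. Ccn2 read 6.76, 6.41 and 5.06 in control, Trp53 loss and Pik3ca/Trp53, and Ccn1 read 2.78, 1.91 and 0.65 (2.55-fold and 2.40-fold lower). Ankrd1 was at least 10.8-fold lower. Tgfb2, in this list and that of TGF-beta, was at least 26.8-fold lower over 2 probes (SD 0.02), from 0.89 to a signal not well above background. The TGF-beta and BMP pathway gave 5 higher and 13 lower of 45, or 4 and 10 with limits (median -0.46). The ligands Tgfb3 (3.10, 3.52, 1.14) and Bmp4 (2.09, 1.41, -0.91) were 5.23-fold and 4.99-fold lower, and Gdf15 (6.69, 4.73, 2.13) 6.08-fold lower. Higher were Bmp7 (2.47-fold) and the BMP targets Id2 (2.30-fold) and Msx1 (6.72-fold), whereas the related Id4 was at least 4.54-fold lower. Of 17 mesenchymal genes measured, 7 were lower, or 4 with limits, and 0 higher. The phosphoprotein Spp1 read 4.91, 7.74 and 5.73 (4.02-fold lower), and the cadherin Cdh6 was 4.92-fold lower. Noggin and a ROCK inhibitor were in the medium of every culture.

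**Figure D4:**
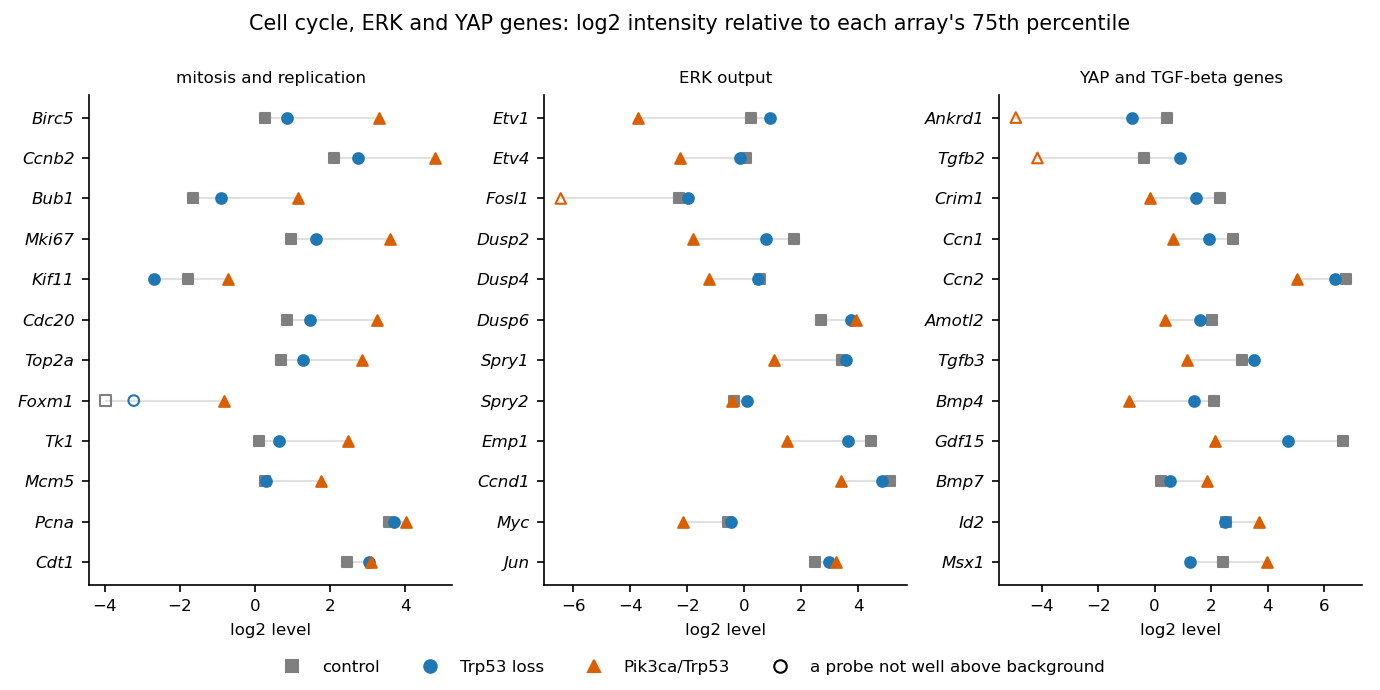
Levels of cell division genes, ERK output genes and YAP or TGF-beta genes in control, Trp53 loss and Pik3ca/Trp53 (symbols as labelled), as log2 intensity relative to each array's 75th percentile, 1 array per group. Open symbols have a probe not well above background. Mki67 (1.63 and 3.61) and its neighbours lie to the right in Pik3ca/Trp53, Etv1 (0.92 and -3.72) and Ccn2 (6.41 and 5.06) to the left, and Dusp6 (3.75 and 3.93) does not follow its group.

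Wnt and Notch genes went both ways. Both counts stand beside 9.15% higher and 8.54% lower of all genes. The Wnt list gave 6 higher and 5 lower of 41 (median -0.10). The feedback target Axin2 was 1.32-fold higher, Tnfrsf19 6.04-fold higher, and the ligands Wnt7a and Wnt7b were 3.11-fold and 1.98-fold lower. The Notch list gave 2 higher (Lfng, 4.63-fold, and Notch1, 2.42-fold) and 1 lower of 20, or 0 lower with limits, with the target Hes1 1.40-fold lower and Hey1 1.73-fold higher.

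For a set of genes the reference array was the one that stood apart, so the control level matters for reading the difference. Of 20 retinoid and steroid genes measured, 8 were higher and 4 lower than in Trp53 loss. Aldh1a1, which makes retinoic acid, read 1.00 in control, -1.92 in Trp53 loss and 1.33 in Pik3ca/Trp53, so that Pik3ca/Trp53 was 9.48-fold above Trp53 loss and 0.33 log2 units above control. Its copy Aldh1a7 (-0.89, -3.53, -0.54) and the retinaldehyde reductase Dhrs3 (0.40, not well above background in Trp53 loss, 0.88) did likewise. Cyp26b1, which degrades retinoic acid, was at least 8.01-fold higher and Rarb, a receptor it induces, at least 4.52-fold, the latter from dim signals in control and Trp53 loss. Lower were the synthesis gene Aldh1a2 (at least 4.11-fold), the degrading Cyp26a1 (at least 5.91-fold), the retinol esterase Lrat (at least 3.63-fold) and Rbp4. The glutathione transferases Gsta2 (-1.07, -3.61, -0.47), Gsta3 (3.05, 1.80, 3.45) and Gsta4 (2.37, 1.26, 2.71), the cornified envelope genes Sprr2f (3.85, 0.18, 4.17), Sprr2a3 (2.63, -0.34, 3.43) and Sprr1a (2.57, 0.75, 2.91), and the demethylase Kdm3a (2.30, -0.37, 2.90) share the order in which Trp53 loss is low and the other two lie within 0.9 log2 units. The Sprr2 genes are close copies. The oviduct glycoprotein Ovgp1 read 3.69, 1.28 and 2.77, 2.81-fold above Trp53 loss and 0.92 log2 units below control.

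The opposite order, with Trp53 loss high, held for several of the genes with the largest negative differences. The secreted peroxidase Gpx3 read -1.99 in control, 2.06 in Trp53 loss and -3.48 in Pik3ca/Trp53 (46.7-fold lower). Hsd11b1, which activates glucocorticoids, read -3.91, 0.56 and a signal not well above background (at least 27.8-fold lower), and the ciliary protein gene Cys1 read -1.59, 2.18 and -2.16 (20.2-fold lower). The lipoprotein gene Apoe read -2.97 and 0.49 before a signal not well above background (at least 19.1-fold lower), and its neighbour Apoc1 was 15.8-fold lower and not well above background in control. The potassium channel Kcnj1 and the cytochrome Cyp2c68 gave a signal over background only in Trp53 loss among the 3 arrays, at least 24.8-fold and at least 17.8-fold above Pik3ca/Trp53.

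Other genes were low in Pik3ca/Trp53 with control and Trp53 loss both well above it. Nbl1, a BMP antagonist, read 3.72, 2.88 and -0.65 (11.5-fold lower). The vitamin C transporter Slc23a1 read 1.24, 0.75 and -2.54 (9.79-fold), the membrane semaphorin Sema7a 1.39, 0.87 and -2.88 (13.5-fold), and the platelet chemokine Ppbp 2.0, 0.65 and -3.48 (17.6-fold). Cidea, a lipid droplet protein, was at least 17.9-fold lower and the calcium sensor Hpcal4 at least 35.0-fold. The protease inhibitor Timp3 was 14.7-fold lower over 2 probes (SD 0.47), the mitochondrial protein Efhd1 13.1-fold (SD 0.02), and the carboxylesterases Ces2b and Ces2c 16.4-fold and 10.9-fold. The relatives Ces1d, Ces1e and Ces1f, chosen after their values were seen, were higher instead, by 5.62-fold, 6.40-fold and 11.1-fold.

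Among the largest positive differences were genes of unlike function. Gulo, which completes vitamin C synthesis in mice, read 0.10 in control, -3.56 in Trp53 loss and 3.58 in Pik3ca/Trp53 (141-fold higher). Kap, an androgen-regulated protein of the kidney, read -1.07, a signal not well above background, and 2.64 (at least 151-fold). Abat, which degrades GABA, was at least 34.4-fold higher, and Khdc1a, an RNA-binding gene, read -1.52, -3.91 and 1.24 (35.6-fold). In these the control level lay between the others or near Trp53 loss. The claudin gene Cldn22 was 19.2-fold higher (-3.03, -4.10, 0.16), the growth factor Ptn at least 12.7-fold over 2 probes (SD 0.15), and the fibulin Fbln7 at least 12.0-fold. Tcstv3 (15.4-fold), known from early embryos, and the neuronal Nsg2 (12.9-fold) were also in the set. Hoxc4, a homeobox gene, was well above background in Pik3ca/Trp53 and on none of the other 5 arrays of the series, at least 14.6-fold over Trp53 loss.

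**Figure D5:**
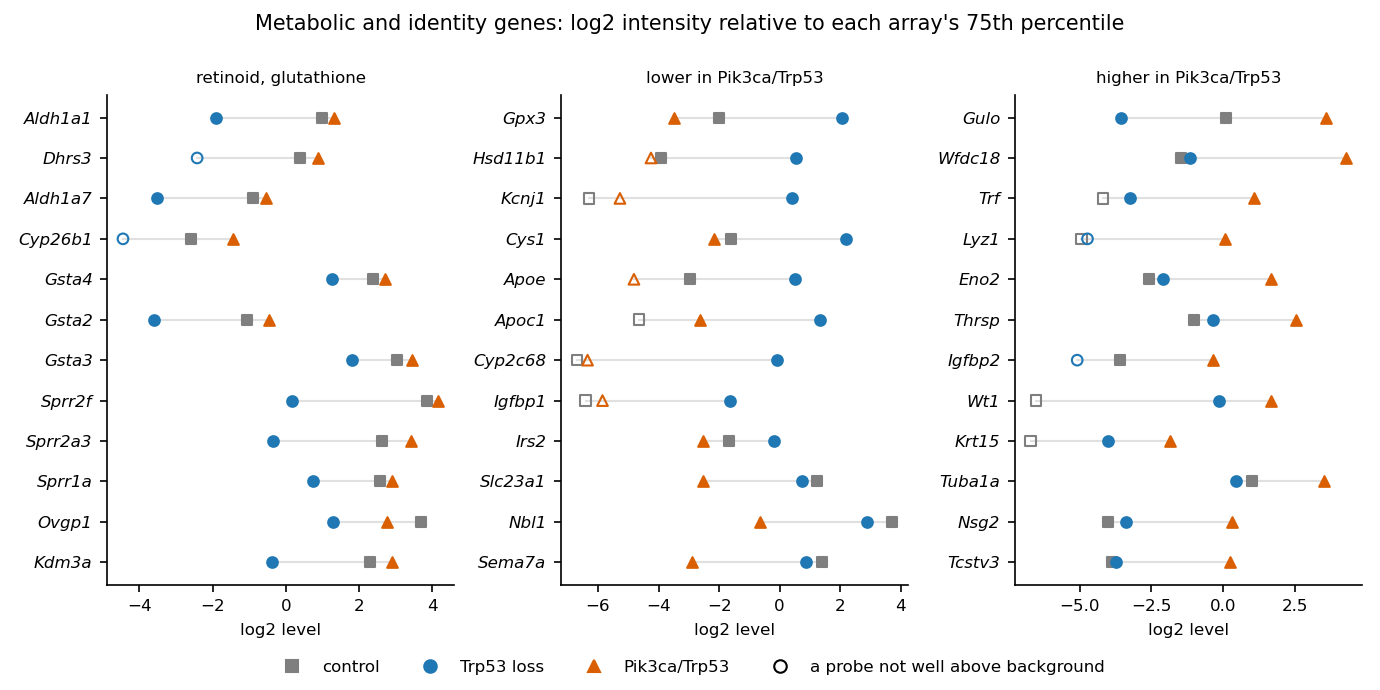
Levels of genes that differed strongly, in control, Trp53 loss and Pik3ca/Trp53 (symbols as labelled), as log2 intensity relative to each array's 75th percentile, 1 array per group. Open symbols have a probe not well above background. In the left panel control lies closer to Pik3ca/Trp53 than to Trp53 loss for each gene, as for Aldh1a1 (1.00 and 1.33), in the middle panel Trp53 loss is high for most genes, as for Gpx3 (2.06), and in the right panel Pik3ca/Trp53 is high, as for Wfdc18 (4.27).

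Identity genes of the oviduct differed one by one, and their counts stand beside 9.15% higher and 8.54% lower of all genes. The Mullerian factor Pax8 read -0.49 in control, -0.05 in Trp53 loss and -0.09 in Pik3ca/Trp53, and Emx2 differed by 0.14. Of 22 such factors and hormone receptors, 4 were higher and 3 lower. Wt1 was not well above background in control and read -0.14 in Trp53 loss and 1.65 in Pik3ca/Trp53 (3.44-fold). Foxa2 read 3.64, 2.49 and 3.73, and Gata6 was 2.64-fold higher. Foxj1, the master factor of motile cilia, read 0.07, -1.54 and -3.40 (3.62-fold lower). Ccno, which is needed to multiply centrioles in multiciliated cells, was at least 3.85-fold lower. Of 48 axoneme genes on the array 23 were measured, with 3 higher and 9 lower (3 and 7 with limits) and a median of -0.15, or -0.04 with limits. Against control 21 of 32 were lower, or 14 with limits, and Trp53 loss against control gave 18 of 32 lower, or 14 with limits. The higher ones included the tubulins Tuba1a (8.42-fold) and Tubb4b (2.48-fold), which cells without motile cilia also use. Of 17 keratins, 6 were higher and 6 lower: the simple keratin Krt8 was 2.23-fold higher and Krt7 3.26-fold lower, while the basal keratins Krt15 (4.43-fold) and Krt14 (at least 3.11-fold) were higher. The mesothelial and oviduct gene Msln was 2.31-fold lower and Upk3b at least 13.1-fold lower.

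Matrix and adhesion genes went both ways, and their counts stand beside 9.15% higher and 8.54% lower of all genes. Of 12 collagens, 3 were higher and 3 lower, or 3 and 2 with limits: the basement membrane chains Col4a1 (-0.98, -3.36 and -1.23), Col4a2 (2.39-fold) and Col4a6 (5.13-fold) were higher, and Col6a2, a chain of the microfibrillar collagen VI, was at least 9.05-fold lower. Control lay beside Pik3ca/Trp53 for Col4a1. Of 24 laminins and integrins, 1 was higher and 6 lower, or 0 and 5 with limits (median -0.46), with the integrin chains Itga7 (4.65-fold) and Itgb5 (4.40, 4.01 and 1.87) and the laminin chain Lamb1 (at least 3.14-fold) among the lower ones. Of 23 matrix proteases and inhibitors, 3 were higher and 7 lower. The plasminogen activators went opposite ways, Plat 2.43-fold higher and Plau 2.19-fold lower, and the matrilysin Mmp7 was 3.40-fold lower (2 probes, SD 0.02).

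The remaining lists are given by their counts, beside 9.15% higher and 8.54% lower of all genes. Of 15 claudins, 3 were higher and 3 lower, or 3 and 2 with limits, with Cldn2 at least 7.28-fold and Cldn10 2.13-fold lower. Squamous differentiation gave 6 higher and 3 lower of 21, with Scel, of the cornified envelope, at least 15.3-fold lower while the Sprr genes were higher. Of 16 secretory oviduct products, 3 were higher and 6 lower. Of 17 apolipoprotein and lipid transport genes, 4 were higher and 4 lower, or 3 and 2 with limits, the fatty acid carrier Fabp5 (3.79, 5.14 and 6.25) being 2.16-fold higher. Glutathione and NRF2 genes gave 5 higher and 4 lower of 34 (5 and 3 with limits), and vitamin C, taurine, GABA and urate enzymes 3 higher and 5 lower of 17, with the urate oxidase Uox 2.53-fold and the taurine pathway gene Cdo1 at least 10.2-fold lower. The hypoxia list gave 3 higher and 1 lower of 21: Stc1 (3.16-fold), the mitochondrial Higd1a (2.60-fold) and Kdm3a were higher and Stc2 2.27-fold lower. Of 8 casein and mammary genes, 0 were higher and 1, Csn2, at least 3.35-fold lower. Of 10 regulators of multiciliated cells, 2 were higher and 3 lower.

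Higher or lower genes sat beside each other on chromosomes in places. Among 13359 placed protein-coding genes there were 63 runs of at least 3 neighbours called in the same direction, 36 higher and 27 lower. Of all measured genes 9.15% were higher and 8.54% lower, and the number of runs that such shares alone would give was not worked out. Most of the long ones are families of related genes, whose probes may read each other. They include Sprr2a3 to Ivl (8 genes, chromosome 3), Trim6 to Trim30d (7, chromosome 7), Ifit2 to Ifit3b (4, chromosome 19), Gbp5 to Gbp2 (4, chromosome 3), Psmb9 to Tap2 (4, chromosome 17) and histone genes on chromosomes 13 and 3, all higher, and Serpina1a to Serpina1e (5, chromosome 12), Ly6 genes (4, chromosome 15) and Apoc2, Apoc1 and Apoe (3, chromosome 7), all lower. Unrelated genes formed runs too, such as Etv1, Arl4a, Scin and Ifrd1 (4, chromosome 12), all lower. These runs were chosen after their values were seen. No whole chromosome stood apart: the medians of 20 chromosomes lay between -0.08 and 0.11.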

How the data were processed

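The scanner files hold processed intensity per spot, background-subtracted with Agilent Feature Extraction 11.0.1.1 and not scaled between arrays, per the file headers and the submitters' processing notes. The deposited value table holds the authors' log2 values of some of the probes, and its scale, centring and choice of probes are not stated. Control and outlier-flagged spots were left out, copies of a probe averaged, and each array's 75th percentile subtracted on the log2 scale. Of 56605 probes, 34566 were named through RefSeq accessions. A gene's value is the mean of the probes that either array compared read well above background. No test was possible with 1 array per group. Counts use signals as measured unless limits are named. The members, the 54 lists and the tests were chosen with earlier results of these data known. Genes were named if they belonged to a list, were among the 15 highest or 15 lowest above background on both arrays, or among the 8 largest bounds in each direction; predicted genes were skipped, and some genes that met the rule are not reported here. The background correction by normexp on median signals (offset 50) and the percentile without outlier spots were chosen after seeing the data. Software was limma 3.58.1 in R 4.3.3, with the package data.table (1.17.8), and matplotlib 3.10.9, pandas 2.3.3 and numpy 2.4.6 under Python 3.11.15.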

Additional observations from a re-analysis of the deposited data

Results flagged for a closer look

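Of the probes that could not be named, which no gene value above uses, 248 were well above background in Pik3ca/Trp53 and in neither control nor Trp53 loss. Over the 7519 unnamed probes measured, 544 (7.24%) were at least 2-fold higher in Pik3ca/Trp53 than in Trp53 loss and 975 (13.0%) were at least 2-fold lower. What these probes detect was not tested.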

How the results depend on the processing

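No paired analysis was possible because each group has 1 array. The counts of 1303 higher and 1216 lower genes became 667 and 434 after normexp on median signals, a setting that also replaced the processed signal, and the cause was not tested. With only probes above background on both arrays the lower count was 662. The deposited value table gave 175 higher and 281 lower of 734 genes, where the values above give 172 and 272. The antiviral median of 2.27 became 1.85 with only probes above background on both arrays, 1.89 with no filter and 1.44 with normexp. The GTPase median of 2.27 became 1.94 with dim signals raised and 1.52 with normexp. With normexp the medians of class I presentation, DNA replication and mitosis were 0.60, 0.61 and 1.25. The ERK median of -1.11 became -0.76 with probes above background on both arrays, -0.80 with no filter or with dim signals raised, and -0.54 with normexp. The value table gave -3.18 over 2 ERK genes and -2.75 over 5 FOXO genes, where the values above have medians of -3.18 and -2.74 for the same genes. It held 0 members of the antiviral, GTPase, class I, replication and mitosis lists. The FOXO median (0.13 over all measured members) changed sign in the value table, which held only those 5 members. The medians of the antiviral, GTPase, class I, replication, mitosis and ERK lists kept their sign under each setting that gave one. The other lists were recomputed only with limits for dim signals. There the median of the vitamin C, taurine, GABA and urate enzymes went from -0.31 to 0.01. Of 384 values of the 47 genes named by size or target, 315 moved by less than the spread between probes, 69 moved by more and 0 reversed. A reversal was counted only where the difference given above was at least 1 log2 unit. Scaling by the median shifted all genes by 0.08 and gave 1455 higher and 1081 lower. Normexp on mean signals was not run, because the columns used here hold median signals only. Leaving out a replicate was not possible. Dim probes limit the fold that can be given, and 1 array per group gives no measure of the spread between cultures.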
